A study of Mus musculus with 6 samples.

Results

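Cytosolic ribosomal protein genes were defined here by symbol alone. A gene was a member when its symbol was Rpl or Rps, a number and at most 1 further letter (a, l or x), when it encoded a protein of the acidic P stalk (Rplp0, Rplp1 or Rplp2), or when it was Rpsa. This gave 76 of the 14005 listed genes, all annotated as protein coding, of which 31 encode proteins of the small (40S) and 45 of the large (60S) ribosomal subunit. Of the 76, 3 lie on chromosome 1, 7 on chromosome 11 and 66 on other chromosomes. RNA was sequenced from FLK1+ mesodermal cells at day 3.5 of embryoid body (EB) differentiation, isolated with an antibody and magnetic beads. Wild-type (WT) cells came from the J1 mouse embryonic stem (ES) cell line, and Scl-/- cells came from an ES cell line that lacks SCL (TAL1), the transcription factor that starts the blood programme. Each genotype had 3 libraries, numbered 1 to 3, and the study's design describes 3 independent differentiations. Both genotypes were labelled with the strain C57Bl/6 X Sv129, except that the number after Sv ran on in 3 of the 6 libraries. Each genotype was 1 ES cell line, so the loss of SCL and other differences between the lines cannot be told apart.

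Ribosomal proteins are made in near-equal amounts and are assembled on ribosomal RNA in the nucleolus. Their mRNAs are among the most abundant of a growing cell. As a rule they begin with a cytosine and a run of pyrimidines, the terminal oligopyrimidine (TOP) motif, through which the mTORC1 kinase and the protein LARP1 control their translation. In people, loss of a single copy of many of these genes causes Diamond-Blackfan anaemia, a failure of red blood cell formation. The comparisons asked how the members differed among themselves, between genotypes and between same-numbered differentiations, and whether members on chromosomes 1 and 11 differed from the rest.

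Levels are given in the deposited unit, CPM, a read count scaled to library size that the authors had normalised by TMM. Reads on listed genes numbered 38623641 to 47621120 per library, and the members took 1.82% to 2.33% of them. The lowest count of any member in any library was 2476 reads, for which counting error alone is 2.01%. The targeted gene Tal1 had 303, 182 and 306 CPM in WT and 9.35, 5.68 and 5.87 CPM in Scl-/- replicates 1 to 3, which fits the labels. Kdr, which encodes FLK1, had 868, 832 and 867 CPM in WT and 724, 777 and 810.4 CPM in Scl-/- replicates 1 to 3.

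Pyrimidine runs near the starts of the members were read from RefSeq transcription starts (mouse GRCm38.p6), in a window on both sides of the start. A run in this window need not be a TOP motif, which opens the mRNA. The reference held 67 starts for 56 members, and 20 members had none. Within 50 bases either side of the start, on the transcript strand, a run of at least 8 pyrimidines was found at 54 of the 67 member starts (80.6%). The same was found at 32.2% of the 12224 starts of all listed genes and at 35.7% of all 32851 starts. The median longest run was 11 bases for members and 6 bases for listed genes. The 5 letters CTTTC stood in this window at 52.2% of member starts on the transcript strand and at 8.96% on the other strand, against 10.02% and 9.62% of the starts of listed genes. CTTCC, which can overlap CTTTC by its first letter, was found at 46.3% of member starts on the transcript strand and at 26.9% on the other strand, against 21.5% and 25.02% for listed genes. For CTTTT the shares were 22.4% and 7.46% of member starts against 8.23% and 6.94%. A match of letters is a description and does not show that a transcript starts there.

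Windows of at most 30 bases are printed for members on which the results below turn, 5′ to 3′ on the transcript strand in GRCm38.p6 coordinates, with the longest pyrimidine run near the start in capitals. The first 7 are members of chromosomes 11 and 1. Rpl15 is the member off these chromosomes with the highest fold change between genotypes. Rps24 and Rps28 had the lowest and the highest coefficient of variation.
Rpl19, chr11:98026947-98026973, plus strand: gcccacaagCTCTTTCCTTTCgctgct
Rpl26, chr11:68901579-68901608, plus strand: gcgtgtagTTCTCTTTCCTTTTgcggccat
Rpl27, chr11:101442194-101442223, plus strand: tcatcctcgCTCCTCCCTCCacacgccgga
Rpl23, chr11:97782404-97782433, minus strand: gagtgggcggggCCTCCCgttcatatccca
Rpl38, chr11:114668568-114668597, plus strand: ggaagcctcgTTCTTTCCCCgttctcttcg
Rpl31, chr1:39367825-39367854, plus strand: tcgccacaCCTCTTCCTCCTCgcctccccg
Rpl37a, chr1:72711275-72711304, plus strand: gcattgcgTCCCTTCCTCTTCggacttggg
Rpl15, chr14:18270967-18270996, minus strand: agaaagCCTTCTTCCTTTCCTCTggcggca
Rps24, chr14:24490711-24490740, plus strand: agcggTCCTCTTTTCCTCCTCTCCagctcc
Rps28, chr17:33824566-33824595, minus strand: ctgtcccgaggaTTCCTgggtaccgcgtgc
Runs of 10 to 14 pyrimidines were present in the chromosome 11 and chromosome 1 windows shown, except Rpl23 with 6, and the longest runs were 17 in Rpl15 and 19 in Rps24. Counted from the listed start, the runs of Rpl27 (first base -42), Rps24 (-37), Rps28 (-21) and Rpl31 (-18) lay wholly upstream of it. Those of Rpl15 (-4) and Rpl38 (-2) spanned the start. Those of Rpl23 (base 19), Rpl26 (22), Rpl37a (24) and Rpl19 (33) began inside the transcript. Where a member had several listed starts, the window with the longest run is shown. The other listed start of Rpl19 had a longest run of 5. At the other listed start of Rps24, the edge of the window cut the same run to 12 bases. The longest run at the listed start of Rps28 was 5 bases. Across the 56 members with an entry, the longest run and the difference between replicates 3 and 1 described below had a Spearman rho of -0.13, over genes that share the same libraries.

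All members were expressed well above the middle of the table. The lowest value of any member in any library was 62.1 CPM, of Rps27 in WT replicate 1. By mean CPM the members ranked between the 70.1 and the 99.8 percentile of the 13991 tested genes, with a median at the 93.9 percentile. Rpl4, a 60S protein, had the highest mean CPM, with 981, 1097 and 1135 CPM in WT and 978, 1164 and 1213 CPM in Scl-/- replicates 1 to 3. Rpl8, of the 60S core near the peptidyl transferase centre, followed with 625, 657 and 903 CPM in WT and 615, 725 and 925 CPM in Scl-/- cells. Rps3, at the mRNA entry of the 40S subunit, came next, with 613, 659.5 and 818 CPM in WT and 574, 689 and 821 CPM in Scl-/- cells. In each of these 3 genes the WT and Scl-/- libraries overlapped, and replicate 3 was the highest library of its genotype.

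The members spanned a wide range of levels although their proteins are needed in near-equal amounts. Per kb of transcript, the level ran from 37.5 CPM per kb for Rps15a to 860.3 CPM per kb for Rpl8, a 23.0-fold range around a median of 302 CPM per kb. The 40S members had a median of 349.5 and the 60S members of 263 CPM per kb. The extremes were chosen after their values were seen. The transcript with the longest coding sequence was used, and those of Rps15a (5130 bases) and Rpl24 (4999 bases), the lowest members per kb, were also the longest. The low end and the fold range therefore depend on the transcript chosen. The quartiles of the 76 members were 198 and 380 CPM per kb. In mean CPM, which does not use length, the members ran from 68.2 to 1095 CPM. Across members, transcript length and CPM per kb had a Spearman rho of -0.42 (n = 76 genes that share libraries, and length enters both measures).

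Most ribosomal protein genes have many processed pseudogenes, near-copies of the mRNA elsewhere in the genome, and reads from the gene can align to them. Of the 50-base windows of a member's transcript, between 0% (Rpl24) and 99.7% (Rps27) also occurred in mm9 outside the gene's own locus, with a median of 56.0%. For 44 members the share was over 50%. Only reads with a mapping quality above 15 had been kept, and how many reads of these genes were lost or assigned elsewhere was not tested, so the levels of these members are uncertain. Rpl8 (7.87%), Rpl4 (17.8%) and Rps3 (3.44%) had few such windows. Share of shared windows and CPM per kb had a Spearman rho of 0.24 across the 76 members, and share of shared windows and log2 fold change between genotypes had a rho of 0.048.

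**Figure D1:**
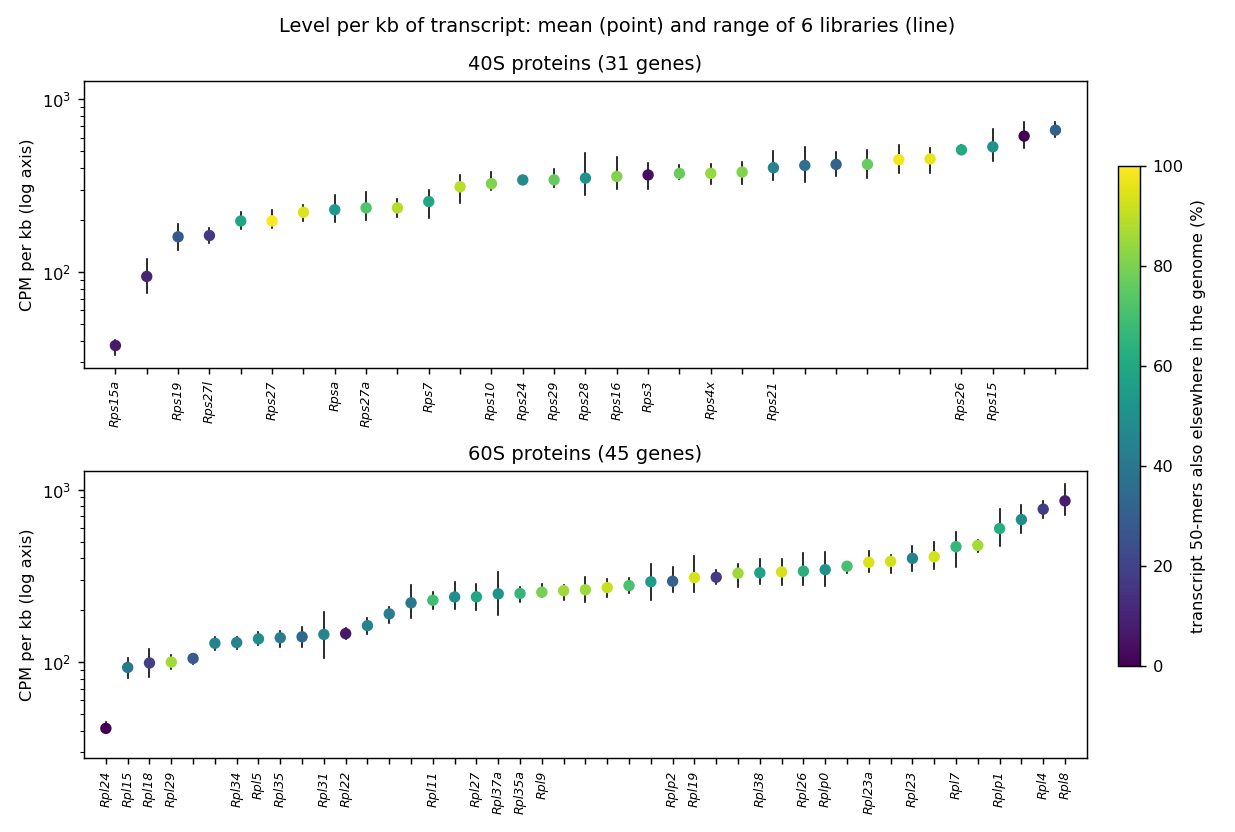
Level of each member in CPM per kb of transcript (log axis), 40S proteins above and 60S proteins below, ordered by level, with the members described in the text labelled. Points are means of all 6 libraries, lines run from the lowest to the highest library, and colour gives the percentage of 50-base windows of the transcript also found elsewhere in mm9. The members span 37.5 to 860.3 CPM per kb, and the range of a member's 6 libraries is small beside the range between members.

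The order of the members was nearly the same in every library. Between any 2 libraries the levels per kb had a Spearman rho of 0.94 to 0.99 across the 76 members. The SD among members of log2 CPM per kb was 0.84 to 0.91 in the 6 libraries. Within a member, the coefficient of variation over 3 libraries ran from 1.93% to 31.2% in WT (median 11.4%) and from 4.73% to 26.8% in Scl-/- cells (median 13.3%). Rps24 was the lowest and Rps28 the highest in both genotypes. Both are genes of the 40S subunit that are mutated in Diamond-Blackfan anaemia.

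Between WT and Scl-/- cells the ribosomal protein genes as a group stood at nearly the same level. Their summed level was 18379, 18847 and 22875 CPM in WT and 17718, 20625 and 23095 CPM in Scl-/- replicates 1 to 3. The mean of the 3 WT libraries was 20034 ± 2472 CPM (SD) and that of the 3 Scl-/- libraries 20479 ± 2691 CPM (SD), which is a log2 ratio of 0.032. Replicate 3 was the highest library of each genotype, and the genotypes overlapped. Within same-numbered pairs the log2 ratio was -0.053, 0.13 and 0.014. In bulk samples, fewer cells of a type and less RNA per cell cannot be told apart.

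No member was called between genotypes. The test was limma on log2(CPM + 0.5) over all 13991 tested genes, and a gene was called at a Benjamini-Hochberg adjusted p under 0.05. Of all tested genes, 333 (2.38%) were called, 111 (0.793%) higher and 222 (1.59%) lower in Scl-/- cells, whereas 0 of the 76 members were, all of which were tested. None of the members had an unadjusted p under 0.05 either, against 17.7% of tested genes. In none did the 3 Scl-/- libraries all lie above or all below the 3 WT libraries, against 11% of tested genes above and 10.7% below. The lowest adjusted p of a member was 0.322, of Rpl15, at a log2 fold change of 0.22 and a standard error of 0.10. Standard errors of the members ran from 0.083 (Rps24) to 0.25 (Rps28) on the log2 scale. Differences of that order, and somewhat larger ones, could therefore not be shown without pairing.

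The log2 fold changes of the members, Scl-/- against WT, formed a narrow range. Their median was 0.028 and their SD 0.094, beside a median of 0.0090 and an SD of 0.44 over all tested genes. The lowest was -0.21 (Rpl31) and the highest 0.29 (Rps27a). In 50 of the 76 the fold change was above 0. The 31 members of the 40S subunit had a median of -0.0021, with 15 above 0, and the 45 of the 60S subunit had 0.049, with 35 above 0. All 3 members on chromosome 1 and 6 of the 7 on chromosome 11 belong to the 60S subunit. The ratio of summed 40S to summed 60S CPM was 0.675, 0.675 and 0.689 in WT and 0.658, 0.653 and 0.665 in Scl-/- replicates 1 to 3.

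Same-numbered libraries deviated together from their group means, so the replicate number was also fitted as a block. With the block, 5 members were called, all higher in Scl-/- cells, and none lower, beside 24.2% of all tested genes (12% higher and 12.2% lower). Of these 5, Rps27a, Rpl19, Rpl23 and Rpl27 lie on chromosome 11 and Rpl15 on chromosome 14. With the block, 10 members had an unadjusted p under 0.05, against 36.9% of tested genes. The standard errors of the members then ran from 0.056 to 0.082. None of the 5 calls was kept when the replicate 2 or the replicate 3 library of either genotype was left out of the blocked fit. Without replicate 1 of either genotype, the 7 members on chromosome 11 were called, Rps27a with the lowest adjusted p (0.0018 to 0.0020). In these blocked fits with 1 library left out, 26.1% to 26.2% of all tested genes and 64.7% to 65.3% of those on chromosome 11 were called (higher, for the latter) without replicate 1. Without replicate 2 or 3 of either genotype, 8.65% to 11.6% of all tested genes and 13.6% to 20.7% of those on chromosome 11 were.

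The log2 fold changes of the 7 members on chromosome 11 ran from 0.18 to 0.29 around a median of 0.24. They were 7 of the 8 highest of all members. Summed over the 7, the level was 1337, 1408 and 1600.2 CPM in WT and 1407, 1827 and 1917 CPM in Scl-/- replicates 1 to 3, a log2 ratio of 0.25. Scl-/- replicate 1 lay within the WT range, and Scl-/- replicates 2 and 3 lay above all WT libraries. Within pairs, the log2 ratios of the sum were 0.074, 0.38 and 0.26. Over all 1211 tested chromosome 11 genes the median log2 fold change was 0.31, and 623 of these genes were called higher with the block. The medians of these genes within pairs were 0.16, 0.39 and 0.37.

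Rps27a (chr11:29445846-29448109 of mm9, minus strand) encodes a fusion of ubiquitin and the 40S protein. It had 159, 159 and 182 CPM in WT and 165, 220.0 and 230.0 CPM in Scl-/- replicates 1 to 3. Scl-/- replicates 2 and 3 were above every WT library and Scl-/- replicate 1 was not. The fold change on the log2 scale was 0.29 (standard error 0.14, limma adjusted p = 0.357, or 0.0383 with the block), the highest among the members. Rpl19 (chr11:97888024-97891806 of mm9, plus strand), which sits at the contact between the subunits, had 191, 193 and 247 CPM in WT and 201, 253 and 309 CPM in Scl-/- cells. The 2 highest libraries were Scl-/- replicates 3 and 2, with WT replicate 3 just below. Its log2 fold change was 0.26 (standard error 0.18, limma adjusted p = 0.529, or 0.0368 with the block).

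Rpl23 (chr11:97638841-97643751 of mm9, minus strand), a 60S protein that can bind MDM2, had 357, 396 and 411 CPM in WT and 389.9, 499 and 485 CPM in Scl-/- cells. Here again Scl-/- replicates 2 and 3 were the highest and Scl-/- replicate 1 lay inside the WT range. The log2 fold change was 0.23 (limma adjusted p = 0.392, or 0.0316 with the block). Rpl27 (chr11:101303612-101306843 of mm9, plus strand) had 147, 159 and 176 CPM in WT and 154, 205 and 209 CPM in Scl-/- cells. Its log2 fold change was 0.23 (limma adjusted p = 0.482, or 0.0493 with the block), the call nearest to the threshold.

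The other 3 chromosome 11 members were uncalled in both fits. Rpl38 (chr11:114529838-114533645 of mm9, plus strand), which affects the translation of Hox mRNAs in the mouse embryo, had 129, 135 and 149 CPM in WT and 134, 180.1 and 176 CPM in Scl-/- cells. Its log2 fold change was 0.24 (limma adjusted p with the block 0.0583). Rpl26 (chr11:68715085-68720491 of mm9, plus strand), which also binds the p53 mRNA, had 169, 170.0 and 222 CPM in WT and 174, 228 and 261 CPM in Scl-/- cells, and a log2 fold change of 0.24 (limma adjusted p with the block 0.0628). In both, the genotypes overlapped through Scl-/- replicate 1. Rpl23a (chr11:77994434-77997086 of mm9, minus strand), at the exit of the nascent chain tunnel, had 186, 195 and 214 CPM in WT and 189, 242 and 247 CPM in Scl-/- cells, with the smallest log2 fold change of the 7 (0.18, limma adjusted p with the block 0.106). Of its transcript windows, 94.5% also occurred elsewhere, and for Rpl19 this was 93.02%.

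Each chromosome 11 member lay among genes that were shifted in the same direction. The median log2 fold change of the 10 tested genes on either side was 0.23 around Rps27a, 0.29 around Rpl26, 0.29 around Rpl23a, 0.36 around Rpl23, 0.30 around Rpl19, 0.34 around Rpl27 and 0.53 around Rpl38. When the median deviation of each chromosome was removed from each library, the 7 members had log2 fold changes of -0.13 to -0.018. None of the 76 members was then called. Without the block 1.91% of tested genes were (0.536% higher and 1.37% lower), and with it 18.8% (8.56% higher and 10.3% lower). At an unadjusted p under 0.05 there were 0 members without the block, against 14.8% of tested genes, and 2 with it, against 33.3%.

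The 3 members on chromosome 1 had the lowest log2 fold changes of all members, between -0.21 and -0.16, and the blocked fit called none of them either. Rpl31 (chr1:39424696-39428753 of mm9, plus strand), near the tunnel exit, had 144, 136 and 202 CPM in WT and 109.7, 128 and 182 CPM in Scl-/- replicates 1 to 3. Each Scl-/- library was below the WT library of the same number, but the genotypes overlapped, since both replicate 3 libraries were the highest. The fold change on the log2 scale was -0.21 (standard error 0.22, limma adjusted p = 0.718, or 0.0719 with the block). Rpl37a (chr1:72757834-72760383 of mm9, plus strand), a small zinc-binding protein, had 135, 134 and 194 CPM in WT and 109.8, 124 and 176 CPM in Scl-/- cells, with the same order of libraries within each pair. Its log2 fold change was -0.18 (limma adjusted p = 0.764, or 0.0721 with the block). Rpl7 (chr1:16091376-16094743 of mm9, minus strand), a further 60S protein, had 379, 379 and 477 CPM in WT and 299, 364 and 448 CPM in Scl-/- cells, and a log2 fold change of -0.16 (limma adjusted p = 0.716, or 0.138 with the block).

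Within pairs, the median log2 difference of the 3 chromosome 1 members was -0.34, -0.093 and -0.14 for replicates 1, 2 and 3. Over all 789 tested chromosome 1 genes the median log2 fold change was -0.29, with -0.39, -0.32 and -0.15 within pairs 1 to 3. With the block, 387 of them were called lower and 13 higher. Around Rpl31, Rpl37a and Rpl7 the 20 nearest tested genes had medians of -0.26, -0.34 and -0.12. The median log2 fold change of the 3 members was -0.038 without WT replicate 3, -0.042 without Scl-/- replicate 1 and -0.38 without Scl-/- replicate 3. With the chromosome medians removed, the 3 members had log2 fold changes of 0.073 to 0.12. On the other autosomes and X the median log2 fold change of all tested genes lay between -0.016 and 0.031. The 4 tested genes on Y, which holds no member, had a median of 1.75.

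**Figure D2:**
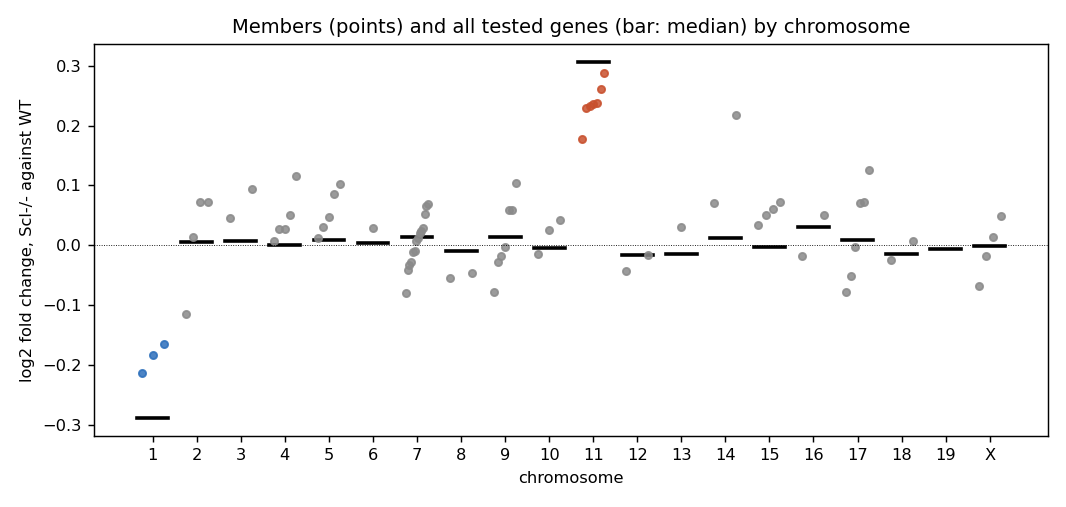
Log2 fold change (Scl-/- against WT) of each member (points) and the median of all tested genes (black bars) on each chromosome. The 3 chromosome 1 members lie between -0.21 and -0.16 and the 7 chromosome 11 members between 0.18 and 0.29, each set between 0 and its chromosome's median, while the other members, except Rpl15 at 0.22, lie between -0.11 and 0.13.

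For the 66 members on other chromosomes the log2 fold changes ran from -0.11 (Rps21) to 0.22 (Rpl15) around a median of 0.026, with 43 above 0. Rpl15 (chr14:19100337-19103905 of mm9, minus strand), a 60S protein and a Diamond-Blackfan anaemia gene, stood apart from them. It had 156, 159 and 182 CPM in WT and 179, 203 and 196 CPM in Scl-/- replicates 1 to 3. Scl-/- replicates 2 and 3 were above all WT libraries, and Scl-/- replicate 1 was just below WT replicate 3. Its log2 fold change was 0.22 (standard error 0.10, limma adjusted p = 0.322, or 0.0484 with the block), and the pairs gave 0.19, 0.35 and 0.11. The tested genes around it had a median of 0.014, and all 480 tested chromosome 14 genes had 0.012. With the chromosome medians removed it kept a log2 fold change of 0.21, with an adjusted p of 0.0745 in limma with the block. Without it, the remaining 65 members ran from -0.11 to 0.13.

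**Figure D3:**
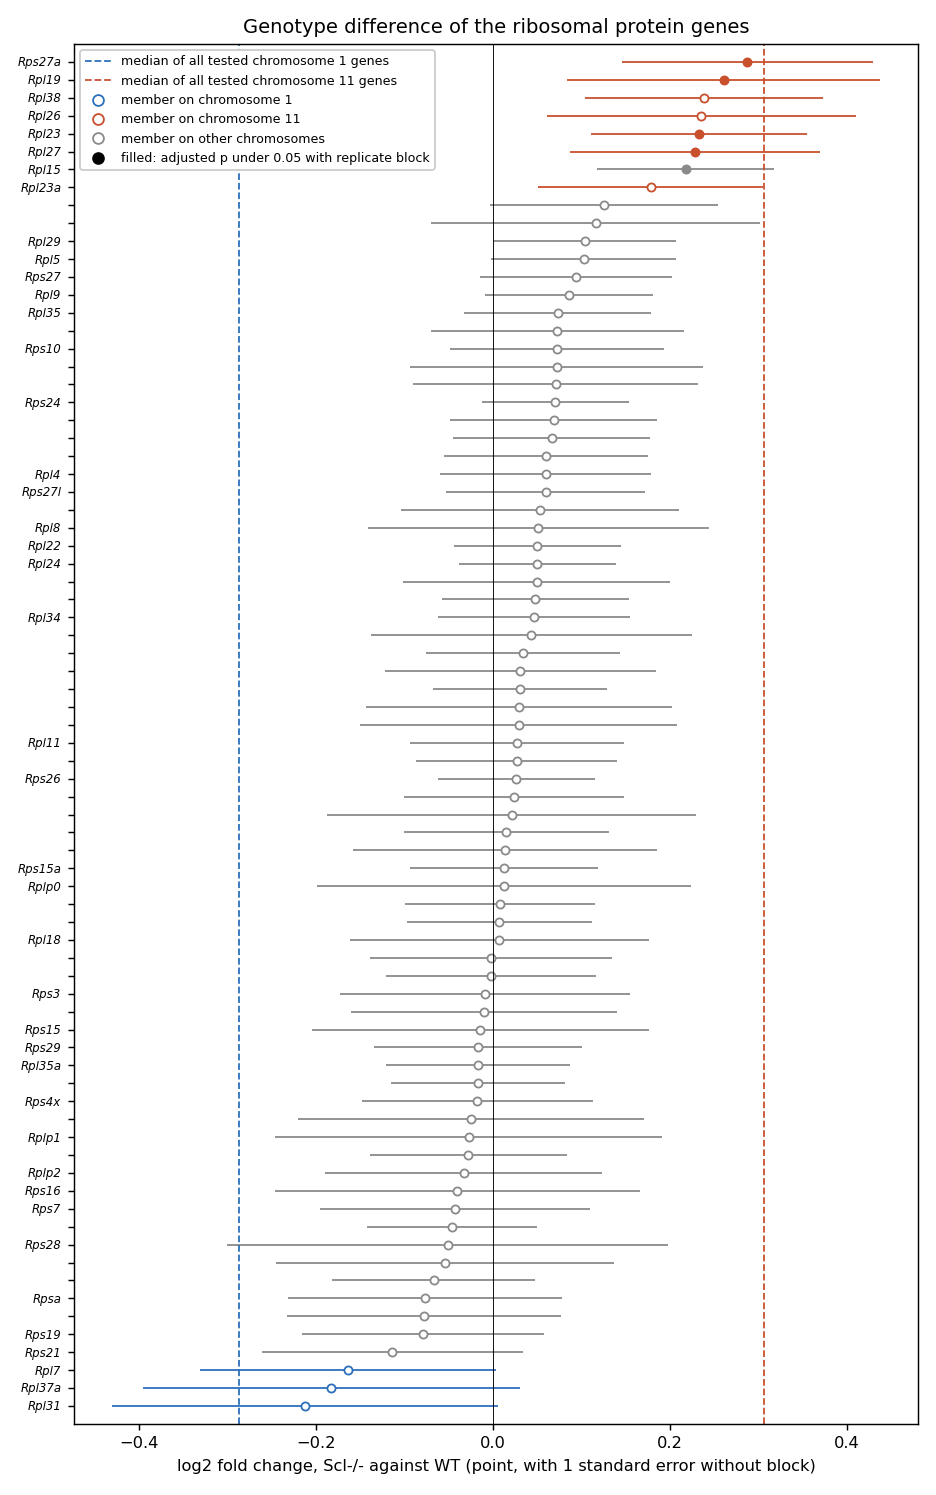
Log2 fold change (Scl-/- against WT) of the 76 members, ordered by value and labelled where described in the text, with 1 standard error of the fit without the block. Dashed lines mark the medians of all tested chromosome 1 (-0.29) and chromosome 11 (0.31) genes, and filled points mark the 5 members called with the block. The chromosome 1 members are the 3 lowest, and the chromosome 11 members with Rpl15 are the 8 highest.

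Below the chromosome 1 members in size, the lowest log2 fold changes were those of Rps21 and Rps19, both of the 40S subunit and both uncalled. Rps21 had 147, 149 and 199 CPM in WT and 134, 152 and 168 CPM in Scl-/- cells (-0.11, limma adjusted p = 0.794). Rps19, the gene most often mutated in Diamond-Blackfan anaemia, had 192, 198 and 242 CPM in WT and 171, 204 and 224 CPM in Scl-/- cells (-0.079, limma adjusted p = 0.863). In both genes the genotypes overlapped, with Scl-/- replicate 1 the lowest library and WT replicate 3 the highest.

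More members were called for replicate number than for genotype. Tested with limma's F-test for replicate number beside genotype, 40 of the 76 members (52.6%) were called at an adjusted p under 0.05, beside 4554 of all tested genes (32.5%). All 40 were higher in replicate 3 than in replicate 1, by 0.26 (Rpl23) to 0.69 (Rps28) on the log2 scale. Over all 76 members the median log2 difference of replicate 3 against replicate 1 was 0.31, and that of replicate 2 against replicate 1 was 0.13, beside 0.0020 and 0.011 over all tested genes. The replicate 3 difference was above 0 in 72 of the 76. Among the exceptions were Rpl9 (-0.018), Rpl22 (-0.020) and Rps24 (-0.045). The count of 40 fell to 2 without WT replicate 3, to 5 without Scl-/- replicate 3, to 18 without WT replicate 2 and to 13 without limma's intensity trend. Summed over members, replicate 3 was 1.24 times replicate 1 in WT and 1.30 times in Scl-/- cells.

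Both genotypes showed this order on their own. Replicate 3 was above replicate 1 in 75 of 76 members in WT (median log2 difference 0.28) and in 72 in Scl-/- cells (0.38). Replicate 3 was the highest library of both genotypes for 57 members (75%), against 26% of all tested genes. Across members the WT and the Scl-/- difference had a Pearson r of 0.85 (n = 76 genes that share libraries). The 40S members had a median replicate 3 difference of 0.36 and the 60S members of 0.27. Of these, 19 of 31 and 21 of 45 were called, beside 32.5% of all tested genes.

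**Figure D4:**
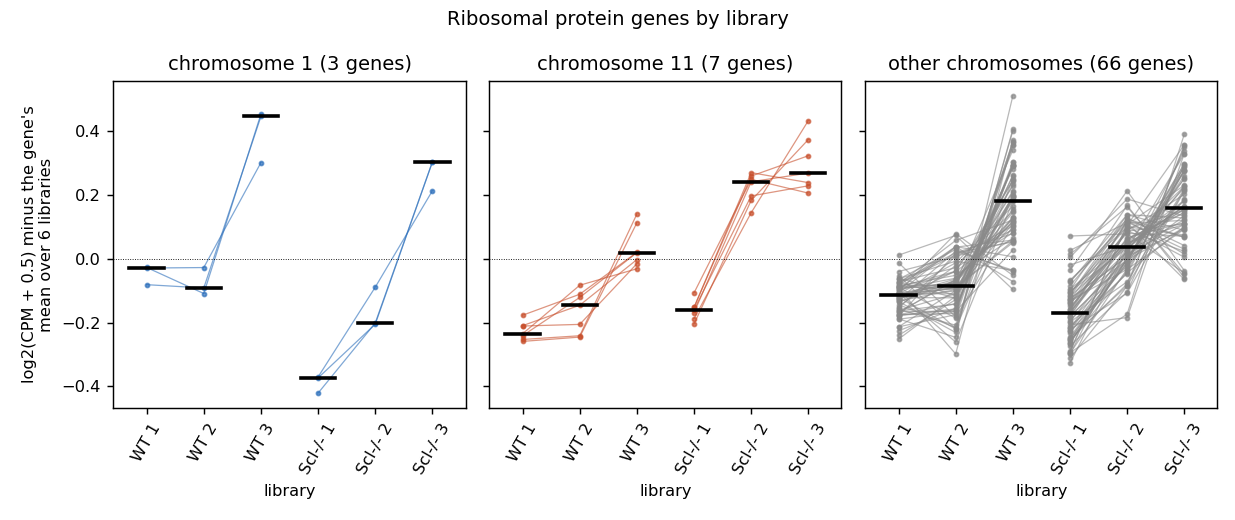
Log2(CPM + 0.5) of each member minus its mean over the 6 libraries, for members on chromosome 1, chromosome 11 and other chromosomes. Points are members, thin lines join a member's 3 libraries of 1 genotype, and black bars are medians over members. Replicate 3 has the highest median of its genotype in every panel, and in the chromosome 11 panel the medians of Scl-/- replicates 2 and 3 lie above those of all WT libraries.

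The 5 members with the highest F for replicate number were Rps28, Rps16, Rpl37a, Rpl8 and Rplp1. Rps28, a small protein at the mRNA exit of the 40S subunit, had 131, 125 and 212 CPM in WT and 121, 132 and 195 CPM in Scl-/- replicates 1 to 3. Both replicate 3 libraries lay above the 4 others. Its log2 difference of replicate 3 against replicate 1 was 0.69 (limma F-test adjusted p = 0.00324). Rps16, which reaches towards the tRNA in the P site, had 209.9, 196 and 302 CPM in WT and 198, 201 and 287 CPM in Scl-/- cells, a difference of 0.53 (limma F-test adjusted p = 0.00411). Rplp1, of the P stalk that recruits elongation factors, had 263, 246 and 383 CPM in WT and 233, 272 and 369.7 CPM in Scl-/- cells, a difference of 0.60 (limma F-test adjusted p = 0.00638). In each of these genes the replicate 3 libraries did not overlap the others. Rpl37a and Rpl8, whose values are given above, had differences of 0.60 and 0.56 and the same separation.

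The 3 P-stalk genes together had 952, 877 and 1321 CPM in WT and 862, 974 and 1282 CPM in Scl-/- replicates 1 to 3. Replicate 3 was 1.39 times replicate 1 in WT and 1.49 times in Scl-/- cells, the genotypes overlapped, and the log2 ratio of the genotype means was -0.015. At the other end, Rps24 had 273, 284 and 278 CPM in WT and 299.8, 301 and 277 CPM in Scl-/- cells, and its highest library was 1.10 times its lowest. Its replicate 3 difference was -0.045 (limma F-test adjusted p = 0.658).

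GC content moved with the replicate number over the whole table. By decile of exonic GC content, the median replicate 3 difference of all tested genes ran from -0.24 in the lowest decile to 0.16 and 0.15 in the 2 highest. Across all tested genes the difference and GC content had a Spearman rho of 0.39 and across the 76 members of 0.28. Member GC content ran from 42.7% (Rpl5) to 61.0% (Rps15), and 72 of the 76 members lay above the median of their own GC decile. The median deviation of each GC decile was also removed from each library, an alternative chosen after the data were seen. Then 37 members (48.7%) were called for replicate number, beside 23.3% of all tested genes. The median replicate 3 difference over all 76 members was then 0.31. With chromosome medians removed, 46 members (60.5%) were called, beside 34% of all tested genes.

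**Figure D5:**
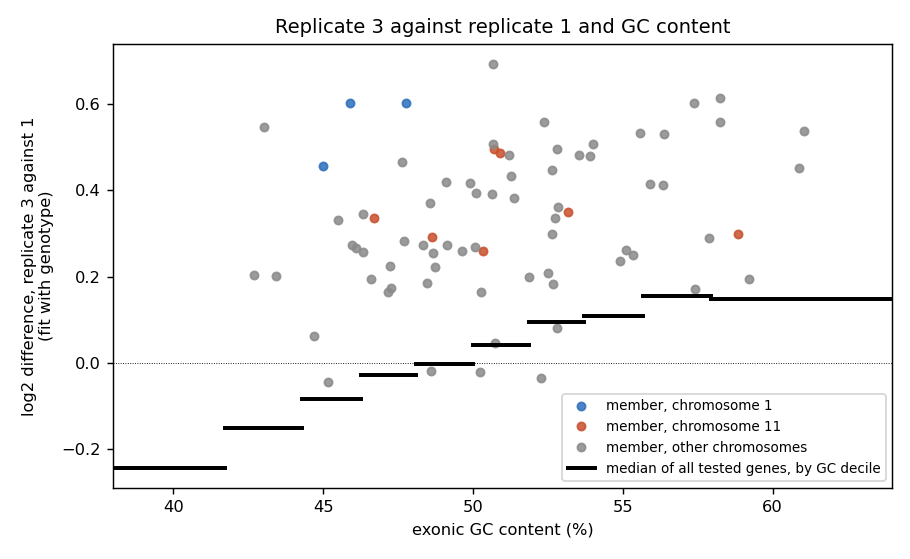
Log2 difference of replicate 3 against replicate 1, from the fit with genotype, against exonic GC content (%) for the 76 members (points) and as medians of all tested genes by GC decile (black bars, the outermost cut at the axis ends). The medians run from -0.24 to 0.16, and 72 of the 76 members lie above the bar of their decile.

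Markers of FLK1+ mesoderm and of other cells in the EB gave these values beside the replicate number. Of 8 pluripotency markers 7 were listed, and their summed level was 153, 213 and 135 CPM in WT and 126, 289 and 245 CPM in Scl-/- cells. For this sum replicate 3 was the highest in neither genotype. Of the 7 single markers, 6 had a replicate 3 difference above 0 (median 0.46), and replicate 3 was the highest library of 0 in WT and of 4 in Scl-/- cells. Of 8 endoderm markers 2 were listed. Their sum was 14.8, 8.34 and 22.4 CPM in WT and 3.32, 3.12 and 8.44 CPM in Scl-/- cells. Replicate 3 was the highest in both genotypes. Between genotypes the 2 genes went opposite ways, with log2 fold changes of -2.10 and 0.85. The lower of the 2 was Sox17 on chromosome 1, which the paper names among endothelial genes activated by SCL. Of 6 neuroectoderm markers 2 were listed, with 21.5, 19.5 and 23.2 CPM in WT and 18.9, 17.6 and 17.9 CPM in Scl-/- cells. Of 8 erythroid markers 3 were listed, with 20.4, 12.5 and 22.8 CPM in WT and 6.66, 8.19 and 5.31 CPM in Scl-/- cells. The embryonic globin gene Hbb-bh1 was at 0 in all 3 Scl-/- libraries, and no other listed marker was at 0 in any library. The 8 FLK1+ mesoderm markers, all listed, summed to 2164, 2177 and 2365 CPM in WT and 2183, 2461 and 2625 CPM in Scl-/- cells, replicate 3 again being the highest. This sum includes the targeted gene Tal1, with a log2 fold change of -5.14, whereas the median of the 8 was 0.76. In limma with the block 5 of them were called higher and 1 lower, beside 12% and 12.2% of all tested genes. The part of these cells or of GC content in the members' replicate differences was not tested.

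The Diamond-Blackfan anaemia list holds 18 of the 76 members. In limma none was called between genotypes without the block (0 at an unadjusted p under 0.05). With it 2 were, Rpl15 and Rpl27, beside 24.2% of all tested genes. The median log2 fold change of the 18 was 0.027, from -0.21 (Rpl31) to 0.24 (Rpl26). For replicate number 10 of the 18 (55.6%) were called, beside 32.5% of all tested genes. Rpl5 and Rpl11, which with 5S RNA hold MDM2 in check when ribosome assembly fails, had log2 fold changes of 0.10 and 0.027. Rpl5 had 257, 261 and 288 CPM in WT and 257, 306 and 304 CPM in Scl-/- cells. Rpl11 had 175, 181 and 209.6 CPM in WT and 168, 196 and 212 CPM in Scl-/- cells. In both genes the genotypes overlapped. Further members of the list had log2 fold changes of -0.051 (Rps28), -0.043 (Rps7), -0.017 (Rpl35a), -0.017 (Rps29), 0.0072 (Rpl18), 0.026 (Rps26), 0.070 (Rps24), 0.072 (Rps10), 0.073 (Rpl35) and 0.094 (Rps27). None of these 10 was called with the block either.

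Paralogous pairs gave no called difference. Rps27 and Rps27l encode 40S proteins that differ at a few residues. Rps27 had 62.1, 69.1 and 66.3 CPM in WT and 66.3, 78.9 and 66.3 CPM in Scl-/- cells, with 99.7% of its windows found elsewhere. Rps27l had 84.7, 88.8 and 101 CPM in WT and 86.7, 95.4 and 104 CPM in Scl-/- cells, with 17.1%. Per kb of transcript the levels were 198 for Rps27 and 162 CPM per kb for Rps27l, and the log2 fold changes were 0.094 and 0.059. Rps4x, on the X chromosome, had a log2 fold change of -0.018. The lowest mean levels after Rps27 were those of Rpl29, with 67.2, 68.8 and 76.1 CPM in WT and 69.5, 80.6 and 77.9 CPM in Scl-/- cells, and of Rpl34, with 74.6, 76.8 and 87.9 and 75.1, 86.8 and 85.2 CPM.

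Of 6 further ribosomal protein genes whose symbols the rule leaves out, both limma fits called 0, with 0 at an unadjusted p under 0.05 without the block and 1 (Rpl22l1) with it. Fau, which encodes a 40S protein fused to a ubiquitin-like protein, had a log2 fold change of -0.023, and Rps3a1 had 0.039. Rpl22l1, the paralogue of Rpl22, was the highest of the 6, with 34.6, 34.6 and 30.5 CPM in WT and 34.8, 50.6 and 37.99 CPM in Scl-/- cells (0.29, limma adjusted p = 0.417, or 0.0903 with the block). Rpl7l1 and Rpl36al had 0.12 and 0.16.

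Of 76 mitochondrial ribosomal protein genes tested in limma, none was called without the block (5 at an unadjusted p under 0.05) and 9 (11.8%) were with it, 7 higher and 2 lower, beside 24.2% of all tested genes. Both lower genes, Mrpl15 and Mrpl30, lie on chromosome 1, and 6 of the 7 higher genes lie on chromosome 11, Mrps7 (0.49) being the highest and Mrpl27 (0.42) next among them. Mrps9, the lowest of the list (-0.25), was not called. The called genes were 6 of 10 in the list on chromosome 11 and 2 of 5 on chromosome 1, beside 51.4% called higher and 49.0% called lower of all tested genes there. The other higher gene was Mrps6 on chromosome 16, with 68.2, 82.5 and 66.5 CPM in WT and 94.1, 113 and 96.5 CPM in Scl-/- cells (0.48, limma adjusted p = 0.102, or 0.00156 with the block). For Mrps6 the Scl-/- libraries all lay above the WT libraries. The median over the mitochondrial list was 0.086. For replicate number 16 of the 76 (21.1%) were called, beside 52.6% of cytosolic members and 32.5% of all tested genes.

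Among 80 tested ribosome biogenesis genes, 1 was called without the block. This was Nol11, of the small subunit processome, on chromosome 11, with 72.4, 77.8 and 71.1 CPM in WT and 125, 144 and 134 CPM in Scl-/- cells (0.86, standard error 0.10, limma adjusted p = 0.00803). Its Scl-/- libraries lay above all WT libraries and its log2 fold change was above the chromosome 11 median of 0.31. With the block, 12 were called higher, 10 of them on chromosome 11, and 6 lower, all on chromosome 1. Together these were 22.5% of the list, beside 24.2% of all tested genes. The called genes were 10 of 11 in the list on chromosome 11 (90.9%) and 6 of 7 on chromosome 1 (85.7%). Of all tested genes there, 51.4% were called higher and 49.0% lower. The lowest were Wdr75 (-0.41), Wdr12 (-0.33) and Ddx18 (-0.33), and next to Nol11 the highest were Nle1 (0.41) and Ddx56 (0.40).

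Of 41 tested translation factor genes, none was called in limma without the block (2 at an unadjusted p under 0.05) and 4 (9.76%) were with it, beside 24.2% of all tested genes. Eif5b, the subunit joining factor, on chromosome 1 (-0.38) and Eif4g3 on chromosome 4 (-0.31) were lower. Eif1 (0.26) and Gnb2l1, which encodes the 40S protein RACK1 (0.27), both on chromosome 11, were higher. Eif4a2, an RNA helicase, was next and uncalled (0.19). The median of the list was 0.019. Eef1a1, elongation factor 1 alpha and itself a TOP mRNA, had 1620.2, 1603 and 2260.3 CPM in WT and 1249, 1656 and 2279 CPM in Scl-/- cells, with replicate 3 the highest of each genotype and a log2 fold change of -0.11 (limma adjusted p = 0.908). Of the 41, 22 (53.7%) were called for replicate number, beside 32.5% of all tested genes.

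Of 22 tested regulators of ribosomal protein synthesis, none was called in limma without the block (5 at an unadjusted p under 0.05). With it 4 were called higher and 3 lower (31.8%), beside 24.2% of all tested genes. Mycn, a MYC family factor that drives ribosome production, had 85.1, 143 and 99.7 CPM in WT and 131, 202 and 197 CPM in Scl-/- cells (0.70, limma adjusted p = 0.184, or 0.00184 with the block). Myc had 219, 112 and 232 CPM in WT and 192, 93.1 and 163 CPM in Scl-/- cells (-0.32, limma adjusted p = 0.741, or 0.0181 with the block). For both, each Scl-/- library differed from the WT library of its number in the same direction, and the genotypes overlapped. Deptor, an mTOR inhibitor, had the highest log2 fold change of the list (1.00, limma adjusted p with the block 0.00412), from 13.7, 23.9 and 10.95 CPM in WT to 20.6, 46.1 and 32.04 CPM in Scl-/- cells, and WT replicate 2 lay above Scl-/- replicate 1. Rptor, the mTORC1 scaffold, was uncalled at 0.36. Rheb, the activator of mTORC1 (-0.32), and Tsc1, which restrains it (-0.25), were lower with the block, whereas Tsc2 (0.23) and Larp1 (0.25) were higher. Larp1, which binds TOP mRNAs, and Rptor lie on chromosome 11, where all tested genes had a median of 0.31.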

How the data were processed

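RNA-seq libraries of day 3.5 FLK1+ EB cells (3 WT, 3 Scl-/-) were analysed from 1 table. The authors aligned reads to mm9 with TopHat2 2.0.8b, removed duplicate read pairs, kept reads with a mapping quality above 15 with SAMtools 0.1.19, and deposited TMM-normalised CPM made in edgeR for 14005 genes. Removing duplicates can limit the values of short, highly expressed genes, which ribosomal protein genes are. The counting tool, its strand setting and the gene annotation are not given in the sources used here. Every value was a whole multiple of 1 step per library within 0.01 reads, which gave the reads on listed genes (38623641 to 47621120).

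Genes that reached 0.5 CPM in 3 or more libraries (13991, with 14 removed) were tested on log2(CPM + 0.5) with limma 3.58.1 in R 4.3.3 (lmFit, eBayes with trend, Benjamini-Hochberg over all tested genes). A fold change on this scale understates that of low genes. Replicate number was tested by limma's F-test beside genotype. Deviations of same-numbered libraries from their group means correlated at 0.59 to 0.76 over tested genes, against -0.62 to -0.10 for other pairs. Deviations cancel within a genotype, which lowers the values of the other pairs. Over the 76 members, same-numbered pairs gave 0.60, 0.83 and 0.91. WT 1 with Scl-/- 2 gave 0.44 and WT 2 with Scl-/- 1 gave 0.57, and the remaining pairs gave -0.85 to -0.64. The study's design describes 3 independent differentiations, so the blocked fit is given beside the unblocked one. Positions, exonic GC content and transcripts came from the GENCODE annotation of mm9, which held all 14005 identifiers. Transcript windows of 50 bases were searched in the mm9 genome. Promoter sequences came from RefSeq (GRCm38.p6). Other steps used Python 3.11.15, NumPy 2.4.6, SciPy 1.17.1, pandas 2.3.3 and Matplotlib 3.10.9.

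The members and gene lists were chosen with earlier results of these data known. Genes named are all members on chromosomes 1 and 11, members called with or without the block, the 5 highest and 5 lowest fold changes, the 3 highest and 3 lowest mean levels, members whose symbol ends in l or x with their counterpart, the Diamond-Blackfan anaemia list, the 5 highest F values for replicate number, the 3 highest and 3 lowest fold changes of each list, and Tal1. Rps15, Rps15a, Rpl9, Rpl22 and Rpl24, and further list genes called with the block, were named after their values were seen. A few genes that these rules name are not reported here. Marker lists are given as sums. Alternatives were other pseudocounts (0.1 and 1), filters and scalings, no intensity trend, removal of chromosome or GC medians, the block and each library left out.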

Additional observations from a re-analysis of the deposited data

How the results depend on the processing

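No member was called between genotypes under any alternative without the replicate block, and their lowest adjusted p ranged from 0.0867 to 0.842 over these fits. With the replicate block, 5 members and 3385 genes were called. With all 6 libraries the pairing changed no other call among the members. Removing chromosome medians with the replicate block gave 2637 genes and 0 members, and removing GC deciles with the replicate block gave 3459 genes and 3 members (Rpl19, Rpl23, Rps27a). Leaving out 1 library in the blocked fit gave 0 to 7 members. It gave 7 without WT or without Scl-/- replicate 1, and 0 in the other cases.

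Leaving out 1 library without the block gave 34 (without WT replicate 1) to 384 genes called between genotypes, 88 without WT replicate 3, 129 without Scl-/- replicate 2 and 162 without Scl-/- replicate 3. The median log2 fold change ranged from -0.043 (without Scl-/- replicate 3) to 0.12 (without Scl-/- replicate 1) for members, from -0.38 (without Scl-/- replicate 3) to -0.038 (without WT replicate 3; -0.042 without Scl-/- replicate 1) on chromosome 1, from 0.15 to 0.37 on chromosome 11 and from -0.051 to 0.12 on other chromosomes. The log2 ratio of summed CPM ranged from -0.063 (without Scl-/- replicate 3) to 0.14 (without WT replicate 3), so no direction is claimed for it. With chromosome medians removed, the median was 0.10 for chromosome 1 and -0.070 for chromosome 11 members.

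For replicate number, leaving out 1 library gave 631 (without WT replicate 2) to 6508 genes, with 943 without WT replicate 3, 1229 without Scl-/- replicate 2 and 1615 without Scl-/- replicate 3. It gave 2 (without WT replicate 3) to 51 members, 5 without Scl-/- replicate 3 and 18 without WT replicate 2. The median replicate 3 difference ranged from 0.24 (without Scl-/- replicate 1) to 0.41 (without WT replicate 1). Without the intensity trend, 2190 genes and 13 members were called. Leaving out both libraries of a number, chosen after the data were seen, gave 1 (replicate 1), 158 (replicate 2) and 8 genes (replicate 3) between genotypes. For replicate number it gave 1338 genes without replicate 2, and 665 genes and 0 members without replicate 3. The causes were not tested. Other pseudocounts, filters and scalings gave no member call between genotypes without the block and were not run with it.

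The planned count model was not run, because too few low values were listed for the criterion set for whole reads. With 3 libraries per genotype, differences near or somewhat above the members' standard errors could not be shown. Members whose transcript windows also occur elsewhere in the genome have uncertain levels. No value names a cause for the chromosome or replicate differences.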
